A study of Mus musculus with 5 samples.

Results

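The transcripts described here encode the lipid-digesting proteins of pancreatic juice, namely the lipases Pnlip, Pnliprp1 and Pnliprp2, the esterase Cel, the cofactor colipase (Clps) and the phospholipase Pla2g1b. They were chosen by gene symbol, as 6 named genes, and 5 of them have a probe set that carries their symbol, out of 19938 genes measured. No probe set carries the symbol Pnlip in the platform annotation used here, so Pnlip was not analysed here, and the planned comparison of the other lipases with Pnlip could not be made. RNA came from whole pancreas at postnatal day 1, from 2 control mice, labelled as without recombination, and 3 Pdx1cKO mice, and each sample was hybridised to 1 Mouse Gene 1.0 ST array. Pdx1cKO mice carry Elastase-Cre and loxP-flanked Pdx1 alleles, and the series title gives both groups as 1 litter. Elastase-Cre is active in exocrine tissue, so Pdx1 is inactivated there and not in endocrine cells. The paper states that the proximal ducts were not recombined. Which of the parental alleles the control mice carried is not given in the labels. The comparison asks how far the transcripts for fat digestion differ in a pancreas with Pdx1 inactivated by Elastase-Cre.

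Acinar cells store these proteins in zymogen granules and release them into the gut. Pnlip, the classical triglyceride lipase, needs colipase to act at the surface of fat droplets coated with bile salts. Pnliprp2 and Cel have a broader choice of substrate, including galactolipids and phospholipids for Pnliprp2 and cholesteryl and vitamin esters for Cel, and both are known from suckling rodents, before Pnlip becomes abundant. Pnliprp1 is a close relative of Pnlip with little known activity on triglycerides. Pla2g1b is secreted as a proenzyme and cleaves dietary phospholipids.

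In GRCm38.p6 the 3 lipase genes lie in a row on chromosome 19, Pnlip at 58670365-58681799, Pnliprp1 at 58728887-58744169 and Pnliprp2 at 58759723-58777534. Cel lies on chromosome 2 at 28555819-28563403, Clps on chromosome 17 at 28558210-28560766 and Pla2g1b on chromosome 5 at 115466142-115474722. The 250 bases before the annotated start of 4 measured genes are shown as background on these genes. They are from RefSeq, read from left to right towards the gene. Capitals mark matches, searched on both strands, to an E-box (CANNTG, bound by basic helix-loop-helix factors such as Ptf1a), a TC-box (TGGGAA, bound by Rbpjl and Rbpj), a core of the Nr5a2 site (CAAGGTC) and a TATA box (TATAAA). A homeodomain core (TAATTA) was searched too.
Pnliprp1 (chr19:58728637-58728886, + strand): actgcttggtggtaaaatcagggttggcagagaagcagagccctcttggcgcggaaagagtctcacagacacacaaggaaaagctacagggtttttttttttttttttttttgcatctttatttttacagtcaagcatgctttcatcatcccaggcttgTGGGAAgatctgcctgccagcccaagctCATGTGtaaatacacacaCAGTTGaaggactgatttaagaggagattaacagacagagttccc
Cel (chr2:28563404-28563653, - strand): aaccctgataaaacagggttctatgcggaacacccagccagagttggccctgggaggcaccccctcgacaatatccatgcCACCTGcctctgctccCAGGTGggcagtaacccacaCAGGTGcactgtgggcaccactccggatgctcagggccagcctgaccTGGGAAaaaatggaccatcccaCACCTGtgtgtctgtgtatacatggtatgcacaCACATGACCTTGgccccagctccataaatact
Pnliprp2 (chr19:58759473-58759722, + strand): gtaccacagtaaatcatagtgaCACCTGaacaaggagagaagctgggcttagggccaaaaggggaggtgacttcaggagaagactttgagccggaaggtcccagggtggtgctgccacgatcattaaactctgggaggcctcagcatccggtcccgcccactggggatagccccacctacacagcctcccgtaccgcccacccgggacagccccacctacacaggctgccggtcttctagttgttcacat
Pla2g1b (chr5:115465892-115466141, + strand): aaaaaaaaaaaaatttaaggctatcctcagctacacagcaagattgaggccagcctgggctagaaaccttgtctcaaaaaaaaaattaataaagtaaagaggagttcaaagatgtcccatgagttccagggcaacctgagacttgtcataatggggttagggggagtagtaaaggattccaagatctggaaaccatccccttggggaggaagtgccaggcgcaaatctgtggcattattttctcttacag

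Pnliprp1 held a TC-box with its first base at -91 from the start and 2 E-boxes at -63 and -45. Cel held a TC-box at -87, 5 E-boxes and, at -27, the Nr5a2 core, which overlaps the E-box at -32. Pnliprp2 held a single E-box, at -228, and no TC-box, and Pla2g1b held none of these letters in the window. None of the 4 held TAATTA or TATAAA. Of 32851 windows of the same length, 66.2% held an E-box, 21.6% a TC-box, 14.8% both, 3.32% the Nr5a2 core, 4.84% TAATTA and 12.4% a TATA box. Clps is not in the sequence table used here. Any link between these letters and the differences between the groups was not tested.

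The mice differed in more than these genes. The intensity of the targeted gene Pdx1 was 67.9 in control 1 and 112.7 in control 2. Pdx1cKO mice 1, 2 and 3 gave 48.4, 48.4 and 42.9, where the median gene of each array lay at 70.4 to 72.4. The groups did not overlap (log2 fold change -0.91, limma adjusted p = 0.385), as in 11.7% of all genes in this direction. Control 2, the higher control, also had most of the stomach and intestinal signal given below, and the part of that signal in Pdx1 was not tested. The arrays carry no detection calls, so how far the mutant values lie above background is unknown. Cells that keep Pdx1, and probes outside the deleted part, could also leave signal, and the part of each was not tested. The labelled tissue was borne out by its defining genes, with the acinar Cpa1 at 10406 and 8231 and the islet hormone Gcg at 2594 and 2650 in controls 1 and 2. All 9 measured stomach genes and 8 of 9 intestinal genes were highest in control 2. By more than 1 log2 over every other array this held for 8 stomach genes and 4 intestinal genes. Summed over the stomach genes the intensity was 555 in control 1, 21913 in control 2 and 6678 to 7611 in Pdx1cKO mice, of which Cym, the milk-clotting protease, made up 6202 to 7123. The 9 liver genes summed to 5383 and 6069 in the controls and to 35422, 42606 and 17304 in Pdx1cKO mice 1, 2 and 3. The granulocyte genes summed to 447 and 458 in the controls and to 1334 to 3606 in Pdx1cKO mice, and the 4 erythroid genes to 353 and 346 against 798 to 2412. Xist was at 622 and 349 in Pdx1cKO mice 1 and 2 and at 33.5 to 53.4 in the other 3, so sex was not balanced. The part of these differences in the results below was not tested.

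All 5 measured genes were lower in every Pdx1cKO pancreas than in either control. Pnliprp2 was lower by 42.2-fold and Pla2g1b by 8.49-fold, while Clps, Cel and Pnliprp1 were lower by 3.02-fold, 2.79-fold and 2.62-fold. Of all 19938 genes, 11.7% had groups that did not overlap in this direction and 12% in the other. None of the 5 passed limma's test after adjustment over all genes at 0.05, where 0% of genes were called lower and 0% higher. At an unadjusted limma p under 0.05 all 5 were lower, against 5.04% of all genes, while 5.29% of all genes were higher. The number was 2 without control 1 (Pnliprp2 and Pla2g1b, against 15.1% of genes), 2 without Pdx1cKO mouse 2 (Pnliprp2 and Clps, against 3.46%) and 4 without each other sample (against 3.2% to 18.5%). In whole pancreas, fewer acinar cells and less transcript per cell cannot be told apart.

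**Figure D1:**
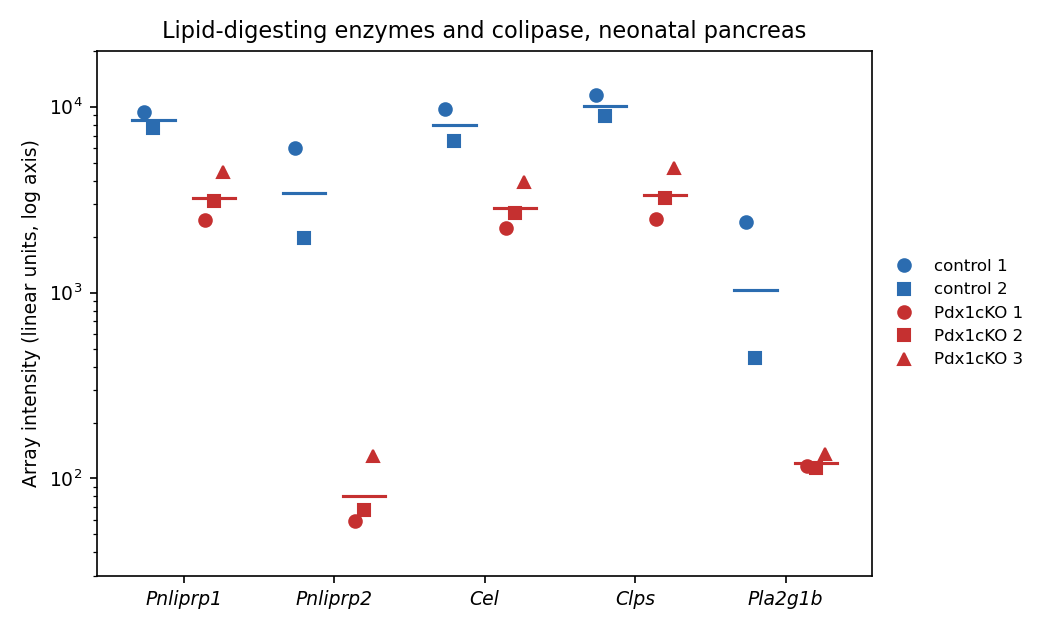
Array intensity, on a log axis, of the 5 measured genes, array by array. Controls are blue and mutants red, with a symbol for each mouse and a line at the geometric mean of the group. Pnliprp2 drops furthest, from 1955 or more in the controls to 132 or less in Pdx1cKO, and in each gene control 1 is the highest point and Pdx1cKO 3 the highest of its group.

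Pnliprp2, the lipase that also cleaves galactolipids, showed the widest gap. Its intensity was 5978 in control 1, 1955 in control 2 and 59.3, 67.7 and 132 in Pdx1cKO mice 1, 2 and 3. The lower control was 3.89 log2 units above the highest mutant. The log2 fold change was -5.40 (standard error 0.684, 95% confidence interval -7.37 to -3.43, limma adjusted p = 0.207), which ranks second from the most negative of 19938 genes. Its log2 SD was 1.14 among controls (n = 2) and 0.62 among mutants (n = 3). The size rested on which control was used. Pnliprp2 was lower by 24.1-fold without control 1 (limma adjusted p = 0.0602) and by 73.8-fold without control 2 (limma adjusted p = 0.0393), where the remaining control is taken to vary as the mutants do.

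Pla2g1b, which releases fatty acids from phospholipids, had an intensity of 2393 in control 1 and 446 in control 2, and mutants 1, 2 and 3 gave 116, 114 and 136. The mutants were close to one another, with a log2 SD of 0.14 (n = 3), and the controls were 5.36-fold apart, the widest control difference of the 5 genes. The log2 fold change was -3.09 (standard error 0.821, 95% confidence interval -5.44 to -0.73, limma adjusted p = 0.367). It was 3.66-fold lower without control 1 and 19.7-fold lower without control 2, and passed in both (limma adjusted p = 0.0220 and 0.00570). With either control left out, limma called 8.94% and 10.4% of all genes lower.

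Colipase, the cofactor that anchors lipase to fat droplets, gave 11510 in control 1 and 8868 in control 2. Pdx1cKO mice 1, 2 and 3 gave 2475, 3225 and 4693. The mutants spread over a wider range than the controls, and the groups were 0.92 log2 apart at their nearest. The log2 fold change was -1.59 (standard error 0.337, 95% confidence interval -2.56 to -0.63, limma adjusted p = 0.298).

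Cel, the bile salt-dependent esterase, gave 9762 in control 1 and 6572 in control 2, and mutants 1, 2 and 3 gave 2235, 2680 and 3938. Its log2 fold change was -1.48 (standard error 0.340, 95% confidence interval -2.46 to -0.50, limma adjusted p = 0.319). Pnliprp1, the relative of Pnlip with little known activity, gave 9308 in control 1 and 7726 in control 2, and the mutants 2450, 3097 and 4476. Its log2 fold change was -1.39 (standard error 0.309, 95% confidence interval -2.28 to -0.50, limma adjusted p = 0.316). For both genes the nearest samples of the groups, control 2 and Pdx1cKO mouse 3, were 0.74 and 0.79 log2 apart.

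In the controls the signals of these 3 transcripts were close to the top of the scale. Pnliprp1 lay 0.74 and 0.94 log2 below the brightest probe set of controls 1 and 2, Cel 0.67 and 1.18 and Clps 0.44 and 0.74, and in Pdx1cKO they lay 1.55 to 2.64 below it. Pnliprp2 lay 1.38 and 2.93 below it in the controls. Signals near the top of a scanner's range can be compressed, and its part in the smaller fold changes of the 3 genes was not tested. Quantile normalization gave smaller differences for the same 3 genes, 2.0-fold for Pnliprp1, 2.12-fold for Cel and 2.46-fold for Clps. It also gave a smaller one for Pnliprp2, 38.8-fold against 42.2-fold, while Pla2g1b stayed at 8.49-fold.

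The order of the mice was shared. In all 5 genes control 1 was above control 2, by 0.27 log2 for Pnliprp1, 0.38 for Clps, 0.57 for Cel, 1.61 for Pnliprp2 and 2.42 for Pla2g1b. In all 5 genes Pdx1cKO mouse 3 was the highest mutant, by 0.69 to 0.73 log2 over the mean of mice 1 and 2 for Pnliprp1, Cel and Clps, by 1.06 for Pnliprp2 and by 0.24 for Pla2g1b. Mouse 3 also had the lowest summed liver, granulocyte and erythroid intensity of the mutants and low Xist. Control 2, the lower control, had most of the stomach and intestinal signal. The part of these other tissues in the order of the mice was not tested.

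Since Pnlip could not serve as the reference, each gene was set against Pnliprp1 in the same array, a choice made after the values were seen. The value of interest is the shift of that log2 difference from the mean of the controls, which removes any factor common to an array. Pnliprp1 had the smallest fall of the 5 genes, so with all 5 arrays this choice fixed all 4 mean shifts as negative. Their direction is therefore no result, and the p-values below were not corrected for the choice. For Cel the shift was -0.05, -0.13 and -0.10 in Pdx1cKO mice 1, 2 and 3, and the controls, at 0.15 and -0.15, lay on either side of them, so no difference from Pnliprp1 was detectable. Clps shifted by -0.24, -0.19 and -0.18, below both controls, and lay a mean of 0.21 log2 further down than Pnliprp1. Pnliprp2 shifted by -4.06, -4.20 and -3.77, with a mean of -4.01 on the log2 scale of these arrays, -3.34 without control 1 and -4.68 without control 2. The size of this shift carries the limits of both probe sets. Pnliprp1 lay near the top of the scale in the controls, and Pnliprp2 in the mutants lay at percentiles 43.2, 47.7 and 71.0 of the genes of its array, with no detection call. Pla2g1b shifted by -1.36, -1.72 and -2.01, and the mean of -1.70 was -0.62 without control 1 and -2.77 without control 2. With 5 arrays there are 10 arrangements of the labels, and the smallest p they can give is 0.1. The exact two-sided permutation test over arrays gave that p for Clps, Pnliprp2 and Pla2g1b and 0.7 for Cel, or 0.133 and 0.7 after Benjamini-Hochberg adjustment over the 4 comparisons.

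**Figure D2:**
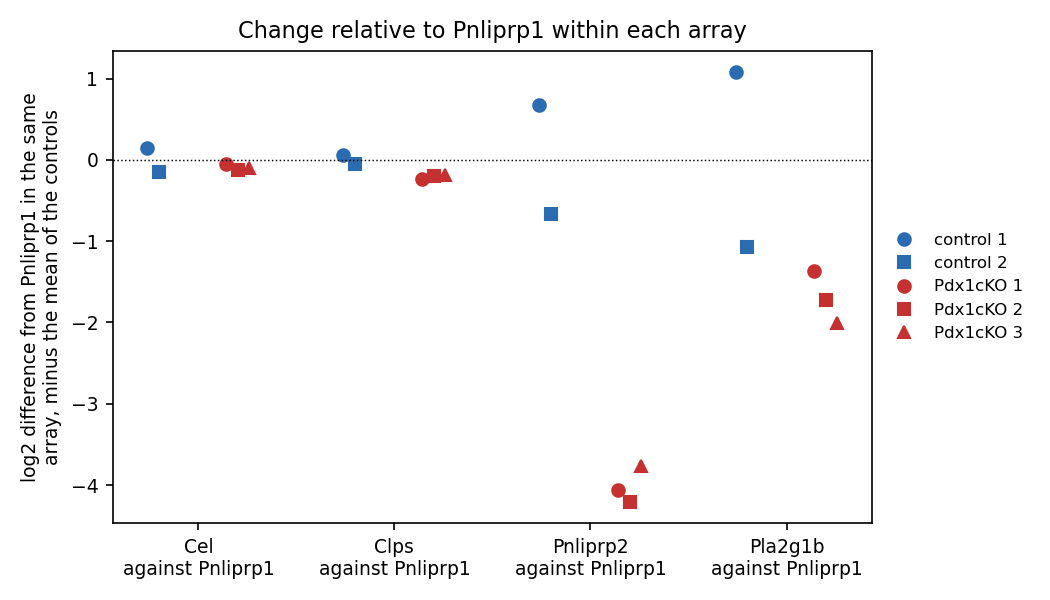
For each array, the log2 difference of Cel, Clps, Pnliprp2 and Pla2g1b from Pnliprp1, with the mean of the 2 controls set to 0. Controls are blue and mutants red. Cel and Clps stay within 0.24 log2 of 0 in every array, Pla2g1b lies at -2.01 to -1.36 in Pdx1cKO and Pnliprp2 at -4.20 to -3.77.

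Over the 5 arrays, with each gene centred on its own mean, Pnliprp1, Cel and Clps differed from one another by a root mean square of 0.09 to 0.11 log2. Pla2g1b differed from these 3 by 1.00 to 1.09 and Pnliprp2 by 1.91 to 2.02, and the pair differed from each other by 1.2. By the same measure the carboxypeptidase Cpb1 was the most similar of all other genes to each of Pnliprp1, Cel and Clps, at 0.12, 0.09 and 0.08. Cpb1 gave 7864 and 6083 in controls 1 and 2, and 1891, 2201 and 2998 in mutants 1, 2 and 3. After it came chymotrypsinogen Ctrb1 and Rap1gap2 for Pnliprp1, Klk1b8 and the elastase Cela3a for Cel, and Cela3a and Ctrb1 for Clps, at 0.15 to 0.23. The nearest to Pnliprp2 were Sycn, a zymogen granule protein, the chymotrypsin-like protease Ctrl and the elastase Cela1, at 0.28, 0.28 and 0.44. The nearest to Pla2g1b were the trypsinogen Try4, the acinar aquaporin Aqp12 and the zymogen granule protein Cuzd1, at 0.19, 0.23 and 0.35. Probes of the trypsinogens, of the kallikrein Klk1b8 and of the lipase relatives may read close paralogs, which was not tested.

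Other digestive enzymes of the pancreas were also lower in Pdx1cKO. Of 18 measured, 16 had groups that did not overlap, with Pdx1cKO lower, against the 11.7% of all genes, and 15 had an unadjusted limma p under 0.05 against 5.04%. None was higher by either rule, against 12% and 5.29%. Leaving out each sample in turn gave 14 to 16 with an unadjusted p under 0.05. Their median log2 fold change was -2.15, where that of the 5 lipid genes was -1.59 and that of all genes -0.00. Prss3 (-3.50), Try5 (-2.23) and the elastase Cela1 (-4.62) had the smallest p, each with a limma adjusted p = 0.183. Of the 18, only Ctrl was more negative than Pnliprp2, and 4 were more negative than Pla2g1b. For Clps 13 enzymes were more negative, and for Cel and Pnliprp1 14.

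**Figure D3:**
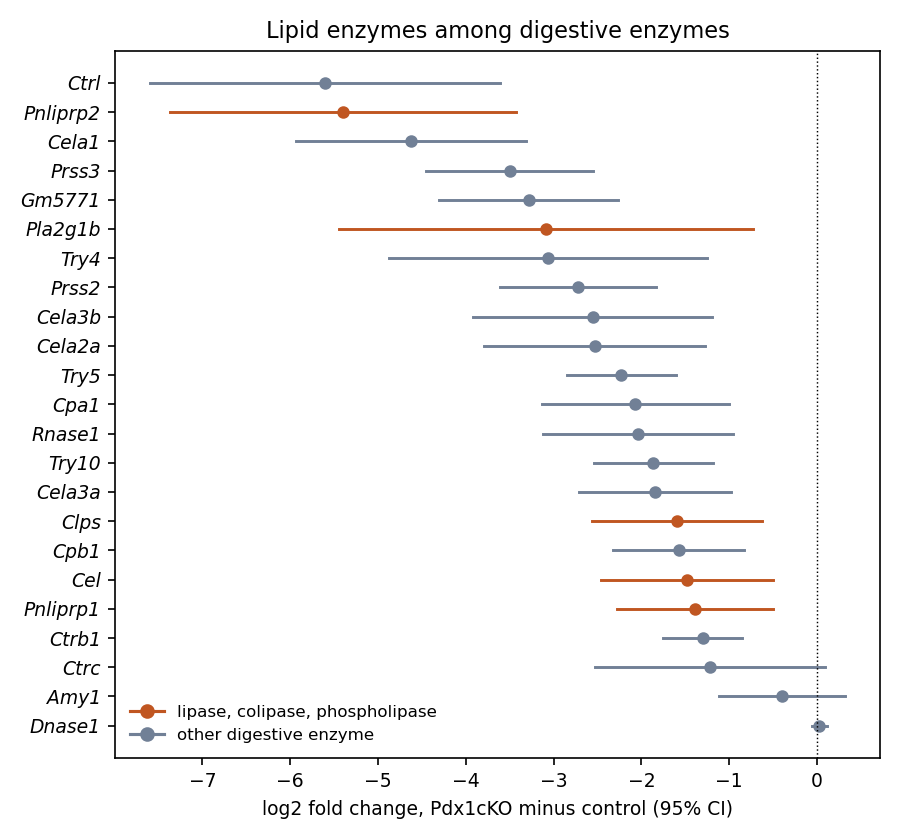
Log2 fold change, Pdx1cKO minus control, of the 5 lipid-digesting genes (orange) and the 18 other digestive enzymes measured (grey), with limma's 95% confidence interval (lines). Pnliprp2 lies second at -5.40, Pla2g1b sixth at -3.09, and Clps, Cel and Pnliprp1 in the lower part of the plot at -1.59 to -1.39.

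Of 7 acinar transcription factors, 4 were lower with an unadjusted limma p under 0.05, against 5.04% of all genes, and 5 were lower without overlap, against 11.7%, with a median log2 fold change of -1.0. When Pdx1cKO mouse 1, 2 or 3 was left out, the 4 became 1, against 3.2% to 3.46% of all genes. In each of these fits 5 were lower without overlap, against 2636 to 2909 of 19938 genes. Omitting control 1 moved the median of the list to -0.51, and omitting control 2 moved it to -0.84. Gata4, which acts early in pancreas development, had a log2 fold change of -1.0, Rbpjl, the acinar partner of Ptf1a, -1.2, and Bhlha15, a factor of secretory maturation, -1.84. Nr5a2, which is known to act on Cel, gave 336 in control 1 and 142 in control 2, against 91.6 to 111 in the mutants (log2 fold change -1.14, limma adjusted p = 0.515). The 6 islet genes measured, from cells outside the reach of Elastase-Cre, were lower at an unadjusted limma p under 0.05, with log2 fold changes of -1.11 to -0.49. This count of 6 was 3 without Pdx1cKO mouse 2 or 3, against 3.46% of all genes, and 5 without Pdx1cKO mouse 1, against 3.2%. The median log2 fold change of the islet genes was -0.65 without control 1 and -1.08 without control 2.

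The counts in the other lists of lipid genes were small and are read against all genes, of which 5.04% were lower and 5.29% higher at an unadjusted limma p under 0.05. Of the 11 other secreted phospholipases, 1 was lower and 1 higher by this rule, shares near those of all genes, with a median log2 fold change of -0.01. When Pdx1cKO mouse 1, 2 or 3 was left out the number lower was 0, against 3.2% to 3.46% of all genes. The median was -0.00 without control 1 and -0.01 without control 2. Pla2g2d, a phospholipase of lymphoid tissue, gave 68.3 and 69.6 in controls 1 and 2 and 88.3, 89.2 and 114 in the mutants, and Pla2g5 gave 54.1 and 51.2 against 49.0 to 49.4. Pla2g10, a phospholipase of the gut, was at 166 in control 2 and at 39.0 to 43.6 in the other 4 arrays.

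Among 5 other extracellular lipases of the same family none had an unadjusted limma p under 0.05. Their median log2 fold change was 0.046, and 0 with control 1 or control 2 left out. Liph, which makes lysophosphatidic acid, gave 59.1 in control 1 and 184 in control 2, and 31.2 to 39.1 in the mutants. Pla1a, a phospholipase A1, was at 46.0 and 39.6 against 51.1 to 117, and Lipg, the endothelial lipase, at 29.8 and 31.8 against 31.8 in each mutant. None of the 5 acid lipases passed either. Lipf, the gastric lipase, was at 23.1 to 23.6 in all 5 arrays, also in control 2 with its stomach transcripts. The other acid lipases named by their p, Lipk and the lysosomal lipase Lipa, had log2 fold changes of -0.09 and 0.25.

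Of 9 genes of intracellular lipolysis, 1 was lower at an unadjusted limma p under 0.05, against 5.04% of all genes. The number was 2 without Pdx1cKO mouse 1, against 3.2% of all genes, and 0 without mouse 2 or 3, against 3.46%. One gene of 9 is no result about the list. It was Mgll, the monoglyceride lipase, with 246 and 241 in controls 1 and 2 and 146, 193 and 193 in the mutants (log2 fold change -0.47, limma adjusted p = 0.455). Pnpla2, the first lipase of stored fat, and Pnpla3 had log2 fold changes of -0.35 and 0.18. None of 14 genes of intestinal lipid uptake and chylomicron assembly passed, and 10 were highest in control 2, 4 of them by more than 1 log2. Without control 1, which leaves control 2 alone, 4 were lower, against 15.1% of all genes. Apob, the scaffold of chylomicrons and liver lipoproteins, gave 81.5 in control 1 and 230 in control 2, and the mutants 263, 830 and 238, and the cholesterol transporter Npc1l1 was at 127 in control 2 and at 43.1 to 46.6 elsewhere. Mogat2, which rebuilds triglyceride in enterocytes, was at 215 in control 2 and 50.8 to 69.8 elsewhere. Intestinal and liver transcripts differed between the same arrays, and their part in these values was not tested.

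**Figure D4:**
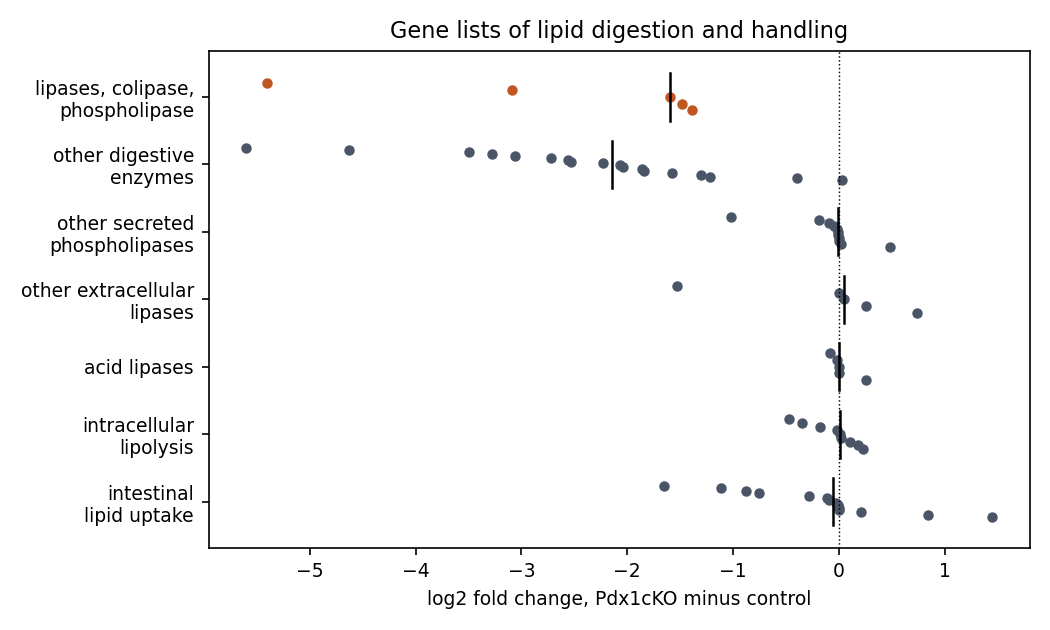
Log2 fold change, Pdx1cKO minus control, of every measured gene (points) in the lists of lipid digestion and handling, with the median of each list (vertical line). All 5 pancreatic lipid genes lie at -1.39 or below, and the medians of the lists other than the digestive enzymes lie between -0.06 and 0.05.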

How the data were processed

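Whole pancreas RNA of 5 newborn mice was read on Mouse Gene 1.0 ST arrays, and samples were grouped by their titles. The authors scanned the arrays and used GeneSpring GX 12.1. The deposited table holds linear intensities, already normalized between arrays (medians 61.0 to 61.9), by a method not given in the sources used here. They carry no detection calls, and 16.3% of probe sets are identical in all 3 Pdx1cKO mice. The number of arrays limits the precision.

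Log2 was taken with no further scaling. Of 28853 probe sets, the 21789 with 1 symbol in the platform annotation were averaged into 19938 genes, while 1621 have several symbols and 5443 are unnamed here. Each measured lipid gene has 1 probe set. Groups were compared with limma 3.58.1 in R 4.3.3 (lmFit, eBayes, Benjamini-Hochberg over all genes, threshold 0.05). The fit was tested on simulated data that gave both groups the spread of the mutants. That setting differs from these data, where the log2 SD of Pla2g1b was 1.71 in controls and 0.14 in mutants. Samples are separate mice, given by the series title as 1 litter, so p-values measure the spread between these 5 mice. Within-array differences were tested by exact permutation. Motif letters were searched in 250 bases before each start in the RefSeq table of GRCm38.p6. No build is named with the array values.

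The genes and lists were chosen with earlier results of these data known. Named genes are the 6 listed, the 3 smallest p in each list, the 3 genes most alike to each lipid gene, and markers where they touch a result. Gcg, Cpa1, Cym, Nr5a2, Xist and Ctrl beside Pnliprp2 were added after values were seen. Alternatives were median scaling, quantile normalization, genes above the median level, every or the brightest probe set, a trend and robust prior, array weights, the methods' t-test, no adjustment, a replicate number block, and omission of each sample. The planned comparisons with Pnlip were not run. Tools were Python 3.11.15 and pandas 2.3.3.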

Additional observations from a re-analysis of the deposited data

How the results depend on the processing

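The log2 fold changes of the 5 genes were negative under every alternative run. None passed adjustment over all genes in the 45 values from fits that omitted no sample by hand, of which the replicate block is described below. Without each sample in turn they ran from -6.21 to -4.59 for Pnliprp2, -4.30 to -1.87 for Pla2g1b, -1.84 to -1.38 for Clps, -1.77 to -1.20 for Cel and -1.62 to -1.19 for Pnliprp1. Only leaving out a control gave calls, Pla2g1b without either and Pnliprp2 without control 2. At an unadjusted p, in limma and in the methods' t-test, all 5 passed at their reported values of -5.40, -3.09, -1.59, -1.48 and -1.39. Over all genes the number lower was 0 in the reported fit, 1005 at an unadjusted limma p, 807 by the methods' t-test and 7 after its adjustment, and 0 to 2072 without a sample. The number higher was 0, 1054, 734, 3 and 0 to 1604. Every adjusted limma call came from leaving out a control, when the single control left has no spread of its own.

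With the replicate block the values were -5.75 for Pnliprp2, -3.16 for Pla2g1b, -1.84 for Clps, -1.71 for Cel and -1.62 for Pnliprp1, with 0 genes called. No control has the number of Pdx1cKO mouse 3, so the block takes up that mouse. These values are therefore the same as those without Pdx1cKO mouse 3. Samples with the same number shared only the number (correlation of deviations 0.03 and -0.00), so the block is no pairing of mice.

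The shift against Pnliprp1 for Cel reversed to 0.058 without control 1 and otherwise reached -0.24. For Clps it ran from -0.26 to -0.15, and was -0.30 with quantile normalization. For Pnliprp2 it ran from -4.68 to -3.34 and for Pla2g1b from -2.77 to -0.62. These shifts were chosen after the data were seen, against the gene with the smallest fall. The causes were not tested. Dim values have no detection calls, so how far Pnliprp2 in Pdx1cKO lies above background is unknown.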
